A study of Mus musculus with 6 samples.

Results

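Cells make cholesterol from acetyl-CoA through the mevalonate pathway, and 7 genes of this system were followed here in endothelial cells (ECs) of the mouse spinal cord. They were Srebf2 and Insig1, which regulate the pathway, and Hmgcs1, Idi1, Fdps, Sqle and Cyp51, which encode enzymes of it. The members were taken by gene symbol from a table of 56748 genes, and each symbol occurred in a single row. No gene for lipoprotein uptake is among the 7 members.

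The study asked what loss of TDP-43, an RNA-binding protein encoded by Tardbp, does to ECs. Control mice were homozygous for a Tardbp allele with loxP sites around exon 3 (Tardbpflox, named Tardbpfl in the study's methods) and carried no Cre. TDP-43iΔEC mice were homozygous for the same allele and carried Cdh5(PAC)-CreERT2, a tamoxifen-activated Cre recombinase. It is driven by the Cdh5 promoter, which is active in ECs. Mice of both groups received 3 tamoxifen injections from a 1 mg/mL solution between P5 and P7, on a C57BL/6 background, and ECs were sorted from the spinal cord at P16. Each group had 3 mice with 1 RNA-Seq library each, and the presence of Cre cannot be told apart from the deletion because the control mice lacked it.

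In sterol-depleted cells, the protein SREBP-2, the product of Srebf2, is carried by SCAP from the endoplasmic reticulum to the Golgi, where it is cleaved, and its released part enters the nucleus and activates the enzyme genes of the pathway. When sterols are plentiful, INSIG proteins hold SCAP and SREBP-2 in the endoplasmic reticulum. Srebf2 and Insig1 are themselves targets of SREBP-2. ECs of the CNS form the blood-CNS barrier, which keeps plasma lipoproteins out of the CNS, so that the tissue makes its own cholesterol, in early postnatal life largely for myelin.

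The regulator and the enzymes of an early and a late step are shown by the bases just before their transcription start, since genes under SREBP-2 control are classically marked there by a sterol regulatory element beside sites for the factors NF-Y and Sp1. The promoter table of RefSeq (build GRCm38.p6) held 5 of the 7 members, namely Hmgcs1, Insig1, Srebf2, Idi1 and Cyp51. Each sequence runs 5′ to 3′ on the strand of the gene over the 250 bases before the start, and capitals mark matches on either strand to TCACNCCAC (the core of a sterol regulatory element), CCAAT (NF-Y) and GGGCGG (Sp1).
Hmgcs1, chr13:119690101-119690350, plus strand: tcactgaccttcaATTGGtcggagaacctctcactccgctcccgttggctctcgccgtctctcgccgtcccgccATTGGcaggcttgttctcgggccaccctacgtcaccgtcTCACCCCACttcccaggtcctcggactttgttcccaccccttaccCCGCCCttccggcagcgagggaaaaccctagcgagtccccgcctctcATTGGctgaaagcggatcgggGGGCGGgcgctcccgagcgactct
Srebf2, chr15:82147019-82147268, plus strand: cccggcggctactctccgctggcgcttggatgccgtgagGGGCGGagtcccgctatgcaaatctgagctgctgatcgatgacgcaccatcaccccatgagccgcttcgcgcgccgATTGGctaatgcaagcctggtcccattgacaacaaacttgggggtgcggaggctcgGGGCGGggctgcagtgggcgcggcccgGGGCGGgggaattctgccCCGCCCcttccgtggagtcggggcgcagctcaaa
Cyp51, chr5:4104698-4104947, minus strand: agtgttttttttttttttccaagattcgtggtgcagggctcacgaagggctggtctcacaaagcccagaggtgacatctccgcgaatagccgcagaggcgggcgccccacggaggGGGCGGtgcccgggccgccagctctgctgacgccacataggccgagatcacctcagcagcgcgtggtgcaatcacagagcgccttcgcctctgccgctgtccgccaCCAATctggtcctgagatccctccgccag

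Over the whole window of 250 bases before and 50 after the start, TCACNCCAC was present in 1 of the 5 members, Hmgcs1, where it read TCACCCCAC from 137 to 129 bases before the start. Of all 32851 windows of the same length in the table, 1.24% held that motif. CCAAT was found in 5 of 5 members and in 37.4% of all windows, and GGGCGG was found in 5 of 5 members and in 35.7% of all windows. None of these motifs overlapped another in the windows shown. Among 14 of 15 other sterol synthesis enzymes that the table held, 0 had TCACNCCAC, 13 had CCAAT and 12 had GGGCGG. Such a match describes the letters of the window only. Variants that differ from a motif by a base were not searched, so a window without a match may still hold such a variant.

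The libraries held 25704871 to 47270654 estimated counts, with the 2 smallest among the TDP-43iΔEC mice, and between 12972 and 16557 genes had a count. The fewest genes were counted in control mouse 2. In normalized counts, Tardbp stood at 1973, 2282 and 2069 in control mice against 982, 599.9 and 433 in TDP-43iΔEC mice, which is the direction the labels give. Its adjusted p was 0.287 in limma and 0.0216 in DESeq2. The EC markers Pecam1, Cldn5, Kdr, Flt1, Vwf and Cdh5 were present in every library, with a summed level of 9122 to 12904 CPM (counts scaled to the library total) in control mice against 9182 to 11589 CPM in TDP-43iΔEC mice. Of 13107 genes tested, 14 were lower (0.107%) and 4 were higher (0.0305%) in TDP-43iΔEC mice at an adjusted p under 0.05 in limma.

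None of the 7 members passed that threshold in either direction, with adjusted p values between 0.429 and 0.952. By edgeR and by DESeq2, 0 members passed as well, where 0 and 250 of 13107 tested genes did. With no gene passing in edgeR, its count at that threshold is 0 for every gene list. At an unadjusted p under 0.05, 3 members were lower in limma, namely Hmgcs1, Fdps and Cyp51, against 5.0% of all tested genes that were lower and 4.26% that were higher at that cutoff, while edgeR and DESeq2 each gave 2 lower members, Hmgcs1 and Fdps. In edgeR 3.75% of tested genes were lower and 2.72% were higher at that cutoff, and in DESeq2 4.28% and 4.21%. With counts scaled to 5 of the EC markers, 0 members were below that cutoff in limma, where 1206 of 13107 tested genes were. Without TDP-43iΔEC mouse 1, 0 members were, where 960 of 14210 tested genes were. The limma count of members was 1 without control mouse 3 (1132 of 13997 tested genes) or without TDP-43iΔEC mouse 2 (1188 of 14019). It was 3 without control mouse 1 (1159 of 13922) or control mouse 2 (1316 of 14381). Without TDP-43iΔEC mouse 3 it was 2 (1150 of 14183). Hmgcs1, Fdps and Cyp51 had every TDP-43iΔEC mouse below every control mouse in normalized counts, where 7.10% of tested genes did so and 7.93% had every TDP-43iΔEC mouse above. The median log2 fold change of the members, TDP-43iΔEC over control, was -0.74, beside -0.01 over all tested genes. It was negative for 5 members and positive for 2. In sorted bulk samples, fewer cells of a type and less RNA per cell cannot be told apart.

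The count of non-overlapping members turned on the scaling. Divided by total counts alone, 2 members (Hmgcs1 and Fdps) were lower without overlap and 1 (Srebf2) was higher, where 5.0% and 10.6% of tested genes were lower and higher. Scaled to the summed counts of the EC markers Pecam1, Cldn5, Kdr, Flt1 and Vwf, 0 members were lower without overlap and 1 (Srebf2) was higher, where 3.99% and 10.9% of tested genes were. Of these 5 markers, Flt1 and Kdr had every TDP-43iΔEC mouse below every control mouse in normalized counts, with limma log2 fold changes of -0.69 for Flt1 and -0.26 for Kdr. Cldn5 had the largest count of the 5 in every library, so it weighed most in the sum. Its groups overlapped, at a log2 fold change of -0.22, as did those of Pecam1 (0.14) and Vwf (-0.09).

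**Figure D1:**
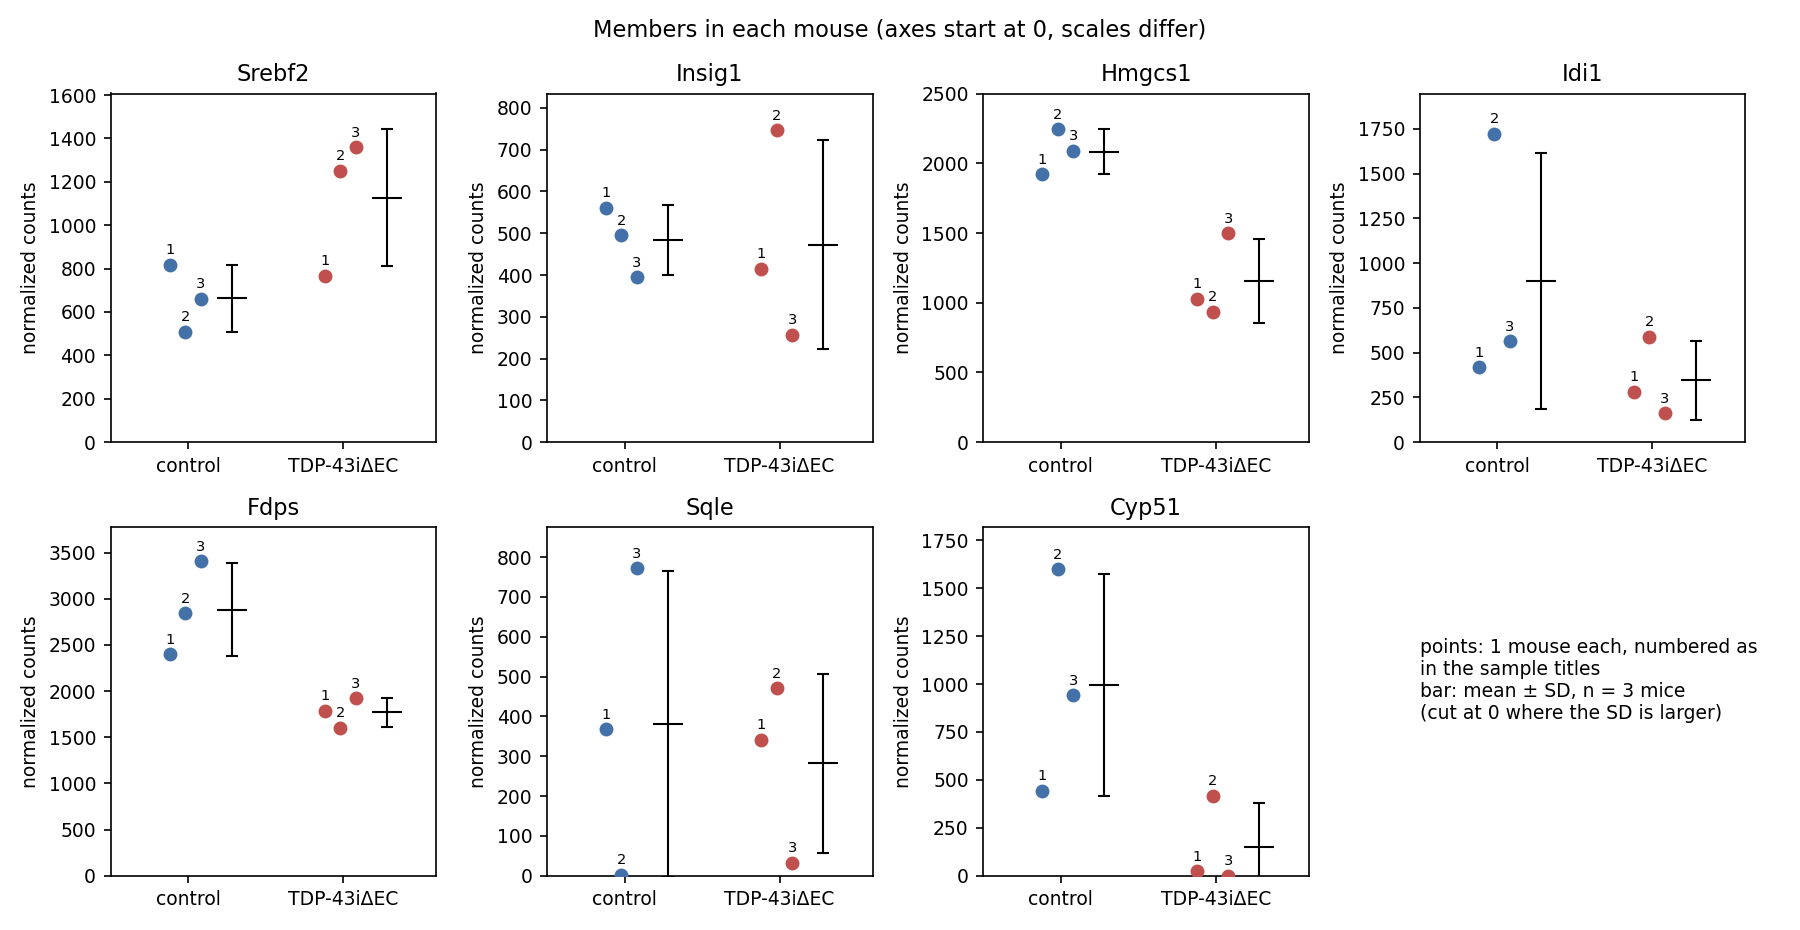
Normalized counts (deposited counts divided by DESeq2 size factors) of the 7 members in each mouse, with the mean ± SD of 3 mice at the side and the mice numbered as in their titles. Hmgcs1, Fdps and Cyp51 show every TDP-43iΔEC mouse below every control mouse, whereas Srebf2 overlaps through TDP-43iΔEC mouse 1 and Sqle spreads widely within both groups.

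Srebf2 encodes SREBP-2, the transcription factor of the pathway, and spans chr15:82031382-82093201 on the plus strand (GRCm39). Control mice gave 819, 508 and 662 normalized counts and TDP-43iΔEC mice 767, 1251 and 1359.5. TDP-43iΔEC mice 2 and 3 lay above every control mouse, and TDP-43iΔEC mouse 1 lay below control mouse 1, so the groups overlapped. The means were 663.0 ± 155.2 (SD, n = 3) and 1126 ± 316 (SD, n = 3) normalized counts. The log2 fold change was 0.62 with a standard error of 0.44 and a 95% interval from -0.38 to 1.61, and the limma adjusted p was 0.661. It was positive in each of the 17 alternatives run, from 0.43 to 0.95, and passed the threshold in none.

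Insig1 encodes the protein that retains SCAP and SREBP-2 in the endoplasmic reticulum and lies at chr5:28276315-28283668 on the plus strand. Its normalized counts were 561, 496 and 394 in control mice against 415, 747 and 257 in TDP-43iΔEC mice. The highest and the lowest mouse both came from the TDP-43iΔEC group, which spread over 2.91-fold against 1.42-fold among controls. The log2 fold change was -0.15 with a 95% interval from -1.46 to 1.16, so changes in either direction within that range stay compatible with these values. Scaling by total counts or by the EC markers turned it positive, at 0.02 and 0.12, as did leaving out TDP-43iΔEC mouse 3, at 0.08.

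Among the enzymes of the mevalonate steps, Hmgcs1 encodes the cytosolic HMG-CoA synthase, which joins acetyl-CoA to acetoacetyl-CoA. It lies at chr13:120151915-120170470 on the plus strand, and it is the member with TCACCCCAC before its start. Control mice gave 1921, 2244 and 2089.7 normalized counts, and TDP-43iΔEC mice gave 1028, 935 and 1500.0. The highest TDP-43iΔEC mouse stayed below the lowest control mouse, and the control mice lay within 1.17-fold of each other. The means were 2085 ± 162 (SD, n = 3) and 1154 ± 303 (SD, n = 3), so that the TDP-43iΔEC mean was 55.4% of the control mean. The log2 fold change was -0.96 with a standard error of 0.32 and a 95% interval from -1.68 to -0.24. Its unadjusted p in limma was 0.0148 and its adjusted p was 0.429. The exact permutation test over the 6 mice (2-sided) gave p = 0.1, the smallest that 3 against 3 allows. On the scale of the EC markers the groups touched, since TDP-43iΔEC mouse 3 stood at 1762 and control mouse 1 at 1588.5. Genes on the opposite strand cover 12.0% of its exon bases, and a stretch of 396 bp matches Baz1a transcripts at 99.5% identity.

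Idi1 encodes the isopentenyl diphosphate isomerase, which interconverts the isoprenoid building blocks, and lies at chr13:8935537-8942487 on the plus strand. Its normalized counts were 418, 1723 and 563 in control mice against 282, 589 and 163 in TDP-43iΔEC mice. Control mouse 2 stood 4.12-fold above control mouse 1, and TDP-43iΔEC mouse 2 lay above the 2 lower controls, so the groups overlapped. The log2 fold change was -1.29 with a standard error of 0.89 and a 95% interval from -3.30 to 0.71, at an adjusted p of 0.647 in limma. With a mouse left out it ranged from -1.70 to -0.72, the latter without control mouse 2. Idi1 shares 684 bp of transcript at full identity with the pseudogene Idi1-ps1, to which 89 counts were assigned over all libraries, so a small part of its reads may have been split between them.

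Fdps encodes farnesyl diphosphate synthase, whose product is the branch point for sterols, dolichol, ubiquinone and protein prenylation, and lies at chr3:89000888-89019213 on the minus strand. Control mice gave 2400.0, 2842 and 3408 normalized counts and TDP-43iΔEC mice gave 1787, 1604 and 1920.0. Every TDP-43iΔEC mouse lay below every control mouse. The means were 2884 ± 506 (SD, n = 3) and 1770.4 ± 158.7 (SD, n = 3), and the TDP-43iΔEC mean was 61.4% of the control mean. The log2 fold change was -0.73 with a standard error of 0.28 and a 95% interval from -1.37 to -0.10, with an unadjusted p of 0.028 and an adjusted p of 0.488 in limma. On the EC marker scale, TDP-43iΔEC mice 1 and 3, at 2111 and 2255, lay above control mouse 1, at 1985. The pseudogene Gm3571 matches 1070 bp of Fdps at 98.1% identity and held 74 counts over all libraries.

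Sqle encodes squalene epoxidase, the first oxygen-requiring step after squalene, and lies at chr15:59186869-59203043 on the plus strand. Control mice had 442, 3 and 951 counts, or 368, 2.67 and 772 normalized counts, and TDP-43iΔEC mice had 341, 471 and 32.6 normalized counts. The lowest and the highest mouse were both controls, 289-fold apart, and no difference between groups could be read against that spread. The limma log2 fold change was 1.05 with a 95% interval from -3.65 to 5.75. It was negative in edgeR, at -0.49, in DESeq2, at -0.44, and at -1.36 without control mouse 2, the library with 3 counts. Stretches of 125 to 470 bp of its transcripts match those of several other genes, and reads within them may have been shared.

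Cyp51 encodes lanosterol 14-alpha-demethylase, the cytochrome P450 that acts on the first ring-closed sterol, and lies at chr5:4123416-4154751 on the minus strand. Control mice had 532, 1798 and 1161 counts, and TDP-43iΔEC mice had 32, 350 and 0 counts. In normalized counts these were 443, 1600.5 and 942 against 24.3, 417 and 0. By counting error alone, a count of 0 in TDP-43iΔEC mouse 3 allows a level of up to 4.26. Transcripts lost before sequencing of these low-input libraries are not covered by that bound. Every TDP-43iΔEC mouse lay below every control mouse, although TDP-43iΔEC mouse 2 came close to control mouse 1. The means were 995 ± 581 (SD, n = 3) and 147 ± 234 (SD, n = 3), so the TDP-43iΔEC mean was 14.8% of the control mean. The limma log2 fold change of -5.44 had a standard error of 2.30, a 95% interval from -10.66 to -0.23 and an adjusted p of 0.522, whereas edgeR gave -2.79 and DESeq2 -2.76. On the EC marker scale TDP-43iΔEC mouse 2 (418) lay above control mouse 1 (366). Exons of Akap9 on the opposite strand cover part of the 28.3% of Cyp51 exon bases that overlap other genes, and the counting was not stated to use strand.

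Per kilobase of exon, the members stood in the order Fdps, Hmgcs1, Idi1, Cyp51, Insig1, Srebf2 and Sqle in control mice. The levels were 589.7 ± 103.4 for Fdps and 396 ± 30.7 for Hmgcs1 normalized counts per kilobase (SD, n = 3), and every control mouse was higher for Fdps than any was for Hmgcs1. Idi1 followed at 254 ± 202, Cyp51 at 168 ± 97.8 and Insig1 at 99.1 ± 17.2 normalized counts per kilobase. Srebf2 stood at 71.0 ± 16.6 and Sqle at 42.9 ± 43.3. From Hmgcs1 downwards each neighboring pair overlapped between mice. In TDP-43iΔEC mice the same scale gave 362.0 ± 32.5 for Fdps, 219 ± 57.5 for Hmgcs1, 120.5 ± 33.8 for Srebf2, 97.2 ± 61.9 for Idi1, 96.8 ± 51.2 for Insig1, 31.7 ± 25.4 for Sqle and 24.8 ± 39.5 for Cyp51. By group mean Fdps and Hmgcs1 stood at the top of the order in both groups, while the regulator Srebf2 stood next to last in control mice and next below Hmgcs1 in TDP-43iΔEC mice, where it overlapped Idi1 and Insig1 but not Hmgcs1.

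**Figure D2:**
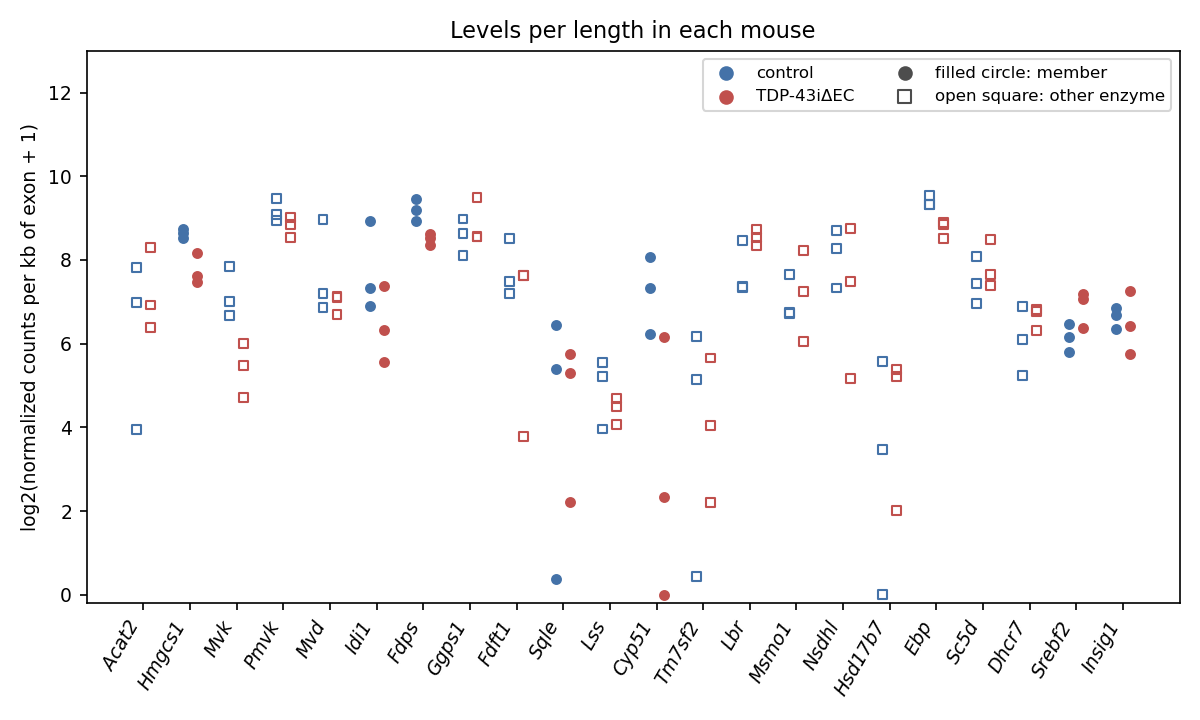
Level per length (log2 of normalized counts per kilobase of exon, plus 1) of each member (filled circles) and of 15 other sterol synthesis enzymes (open squares) in each mouse, in pathway order with the regulators last. By group mean Fdps and Hmgcs1 are the highest members in both groups, although Idi1 lies above Hmgcs1 in control mouse 2 (486 against 426 per kilobase), and the points near 0 are control mouse 2 for Sqle, Tm7sf2 and Hsd17b7 and TDP-43iΔEC mouse 3 for Cyp51.

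A further 15 enzymes of sterol synthesis were all tested, and 0 passed the adjusted threshold in limma, edgeR or DESeq2. Of all 13107 tested genes, 18, 0 and 250 passed in limma, edgeR and DESeq2. At an unadjusted p under 0.05, 2 were lower and 1 was higher in limma, where 656 and 559 of 13107 tested genes were. Every TDP-43iΔEC mouse lay below every control mouse for 2 enzymes and above for 0, against 7.10% and 7.93% of tested genes. The log2 fold changes of the 15 enzymes were negative for 7 and positive for 8, with a median of 0.20. Mvk encodes mevalonate kinase, the enzyme that phosphorylates mevalonate. It gave 1422.5, 1133 and 2534 normalized counts in control mice against 283, 707 and 484 in TDP-43iΔEC mice, without overlap. Its log2 fold change was -2.0 with a standard error of 0.62 and an adjusted p of 0.388 in limma, the lowest of the list, and of 0.0784 in DESeq2. Hsd17b7, a sterol ketoreductase, ranged from 0 to 238 normalized counts among control mice alone. Fdft1, the squalene synthase, gave 853, 699.6 and 1748 normalized counts in control mice against 939, 943 and 61.0 in TDP-43iΔEC mice, and its log2 fold change was -0.98 with an adjusted p of 0.728 in limma. With a mouse left out it ranged from -1.91 (without TDP-43iΔEC mouse 1) to -0.15 (without TDP-43iΔEC mouse 3). Ebp and Lbr, named after their values were seen, gave log2 fold changes of -0.71 and 0.81. Ebp, the sterol isomerase, was another enzyme whose groups did not overlap, at 2619.6, 2605 and 3041 against 1498, 1885 and 1949.8 normalized counts.

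**Figure D3:**
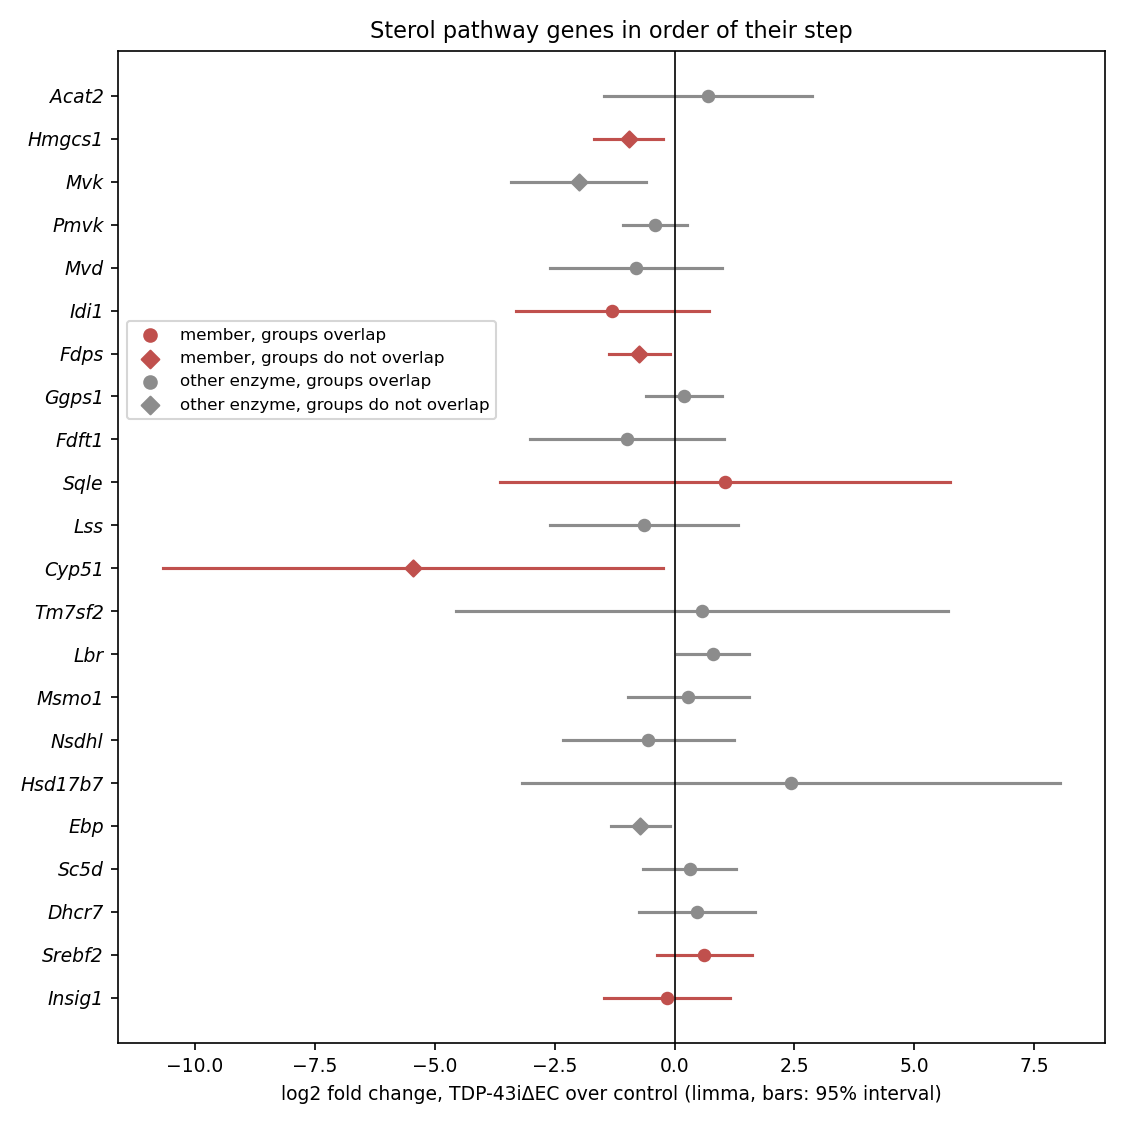
The log2 fold change (TDP-43iΔEC over control, limma) with its 95% interval for the members (red) and the 15 other enzymes (gray) in pathway order, with diamonds where the groups do not overlap. The 5 diamonds are Hmgcs1, Mvk, Fdps, Cyp51 and Ebp, all lower in normalized counts, where 7.10% of tested genes were lower and 7.93% higher without overlap, but on the EC marker scale 0 members were lower without overlap and 1 was higher. Cyp51 (-10.66 to -0.23), Sqle (-3.65 to 5.75), Tm7sf2 and Hsd17b7 have the widest intervals.

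Around the pathway, 0 of 9 genes of sterol sensing and SREBP processing passed the adjusted threshold in limma, edgeR or DESeq2, and 0 were below an unadjusted p of 0.05 or without overlap. Scap, which escorts SREBP-2, and Insig2, the paralog of Insig1, were chosen for naming after their values were seen and had log2 fold changes of 0.01 and 0.02. By the fixed rule, Rnf145 and Rnf139, which encode ubiquitin ligases of the endoplasmic reticulum, and Mbtps2, the second protease that releases SREBP-2, were the 3 largest, at -1.73, -0.40 and -1.01, with adjusted p values of 0.672, 0.829 and 0.672 in limma. Rnf145 was positive in edgeR and DESeq2, Rnf139 was positive without control mouse 2, and Mbtps2 was at -0.24 without TDP-43iΔEC mouse 1. Of 12 genes of fatty acid synthesis, 0 passed in limma and edgeR and 1 passed in DESeq2, where 250 of 13107 tested genes passed. It was Scd1, a fatty acid desaturase. In limma 2 of the 12 were lower and 0 were higher at an unadjusted p under 0.05, where 656 and 559 of 13107 tested genes were. Without overlap, 2 of the 12 were lower and 1 was higher, where 7.10% and 7.93% of tested genes were. The median log2 fold change of the 12 was -0.04. Scd1, named because that call turned on it, gave 74.9, 334 and 75.5 normalized counts in control mice against 0.758, 4.77 and 0 in TDP-43iΔEC mice. The desaturase Fads1 (log2 fold change 3.71), the acetyl-CoA synthetase Acss2 (2.87) and the fatty acid synthase Fasn (1.98) were the 3 largest with enough counts, and each had its lowest control value in control mouse 2, at 1.78, 0 and 0 normalized counts. Without that mouse the log2 fold changes were 0.74 for Fads1, 0.36 for Acss2 and -1.19 for Fasn.

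Among 12 genes of sterol efflux, uptake and storage, 0 passed the adjusted threshold in limma, edgeR or DESeq2. The median log2 fold change of the 12 was -0.25. At an unadjusted p under 0.05 in limma, 2 were lower and 0 were higher, where 656 and 559 of 13107 tested genes were. The same 2 were lower without overlap and 1 (Ch25h) was higher, where 7.10% and 7.93% of tested genes were. Those 2, named after their values were seen, were Lipa, the lysosomal acid lipase, at -0.62 with an adjusted p of 0.36, and Abca1, the cholesterol exporter, at -0.62 with an adjusted p of 0.396. Ch25h, the cholesterol 25-hydroxylase, was the largest of the list at 4.35 from 0 to 45.7 normalized counts in control mice against 118 to 447 in TDP-43iΔEC mice, with an adjusted p of 0.554 (2.20 without control mouse 3, the library at 0), followed by the sterol receptor gene Nr1h3 (1.34) and the ubiquitin ligase gene Mylip (-1.12), whose signs each turned with at least 1 mouse left out. Of 10 genes of the isoprenoid branches, 0 passed in limma, edgeR or DESeq2, and 0 were below an unadjusted p of 0.05. Without overlap, 1 of the 10 was lower, where 7.10% of tested genes were. It was Coq2 of ubiquinone synthesis, at -1.02 with an adjusted p of 0.587 in limma. The other genes named by the rule there were Pdss1, also of ubiquinone synthesis, at -1.98 but at 0.21 without control mouse 2, and Rabggtb, a subunit of a Rab prenyltransferase, at 0.90.

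Markers of other cells were summed in each mouse beside the members. The 7 members summed to 189, 233 and 230.2 CPM in control mice against 136, 179 and 143 CPM in the TDP-43iΔEC mice. The 7 oligodendrocyte lineage markers Mbp, Mog, Mag, Cnp, Olig1, Olig2 and Sox10, cells that make much cholesterol for myelin, summed to 170.5, 285 and 218.5 CPM in control mice against 338, 56.1 and 16.1 CPM in TDP-43iΔEC mice, with Mog and Mag at 0 in TDP-43iΔEC mice 2 and 3. In normalized counts, TDP-43iΔEC mouse 1 had an oligodendrocyte sum of 11542, close to the 11488 of control mouse 2. Among the 7 markers in that mouse, Olig1 and Olig2 were at 0, Mbp, Mog and Mag lay between the lowest and the highest control mouse, and Cnp (2634.8 against at most 2607.1) and Sox10 (204 against at most 3.33) lay above every control mouse. In normalized counts that mouse stood below every control mouse for Hmgcs1 (1028), Fdps (1787) and Cyp51 (24.3). The 6 astrocyte markers summed to 217 to 254 CPM in control mice against 139 to 195 CPM in TDP-43iΔEC mice, mostly from Gja1, with Aqp4 at 0 in control mouse 2 and in all 3 TDP-43iΔEC mice. The 5 red cell markers summed to 6336 to 9759 CPM in control mice against 2197 to 2909 CPM in TDP-43iΔEC mice, and Hbb-bs, Hbb-bt, Hba-a1 and Hba-a2 were lower at adjusted p values of 0.0209 to 0.0269 in limma. The 6 neuronal markers summed to 4.99 to 11.1 CPM in control mice against 0.815 to 2.16 CPM in TDP-43iΔEC mice. Microglial markers summed to at most 8.21 CPM, fibroblast markers to at most 23.1 CPM and mural markers to 390.0 to 1018 CPM in any library. The study's antibody list names fluorescent antibodies to CD31, CD45 (leukocytes) and TER-119 (red cells), and the gate used in the sort is not given in the sources used here. The part of these cells in the member values was not tested.

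**Figure D4:**
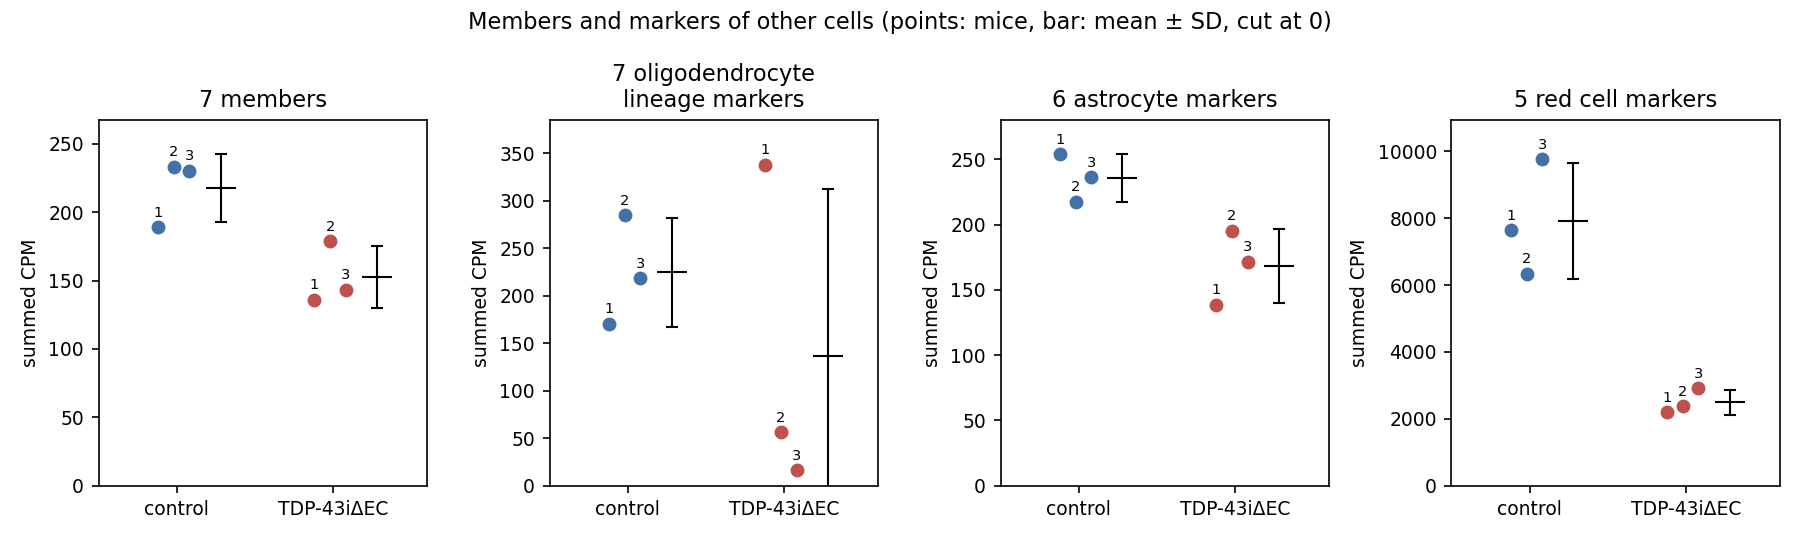
Summed CPM per mouse of the 7 members and of the markers of the oligodendrocyte lineage, astrocytes and red cells, with the mean ± SD of 3 mice. TDP-43iΔEC mouse 1 has an oligodendrocyte sum of 338 CPM and a member sum of 136 CPM, and red cell markers separate the groups without overlap.

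By the rule fixed for likeness, the 5 genes outside the list whose log2 CPM followed the mean of the members' standardized log2 CPM most closely over the 6 libraries were Rbm12b2 (Pearson r 0.989), Wdr1 (0.989), Uevld (0.985), 2610021A01Rik (0.984) and Pnpla7 (0.981). Only genes with a mean of at least 100 counts per library were ranked. The 6 points share 2 groups and differ in depth, and these genes were the closest of those ranked, so the values are a description. Each member against the mean of the other 6, a different mean with no selection, gave r of 0.878 for Cyp51, between 0.216 and 0.493 for Hmgcs1, Fdps, Insig1 and Idi1, -0.05 for Sqle and -0.66 for Srebf2. Wdr1, an actin-disassembly cofactor, gave 15165, 13195 and 14771 normalized counts in control mice against 9968, 13735 and 9071 in TDP-43iΔEC mice.

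**Figure D5:**
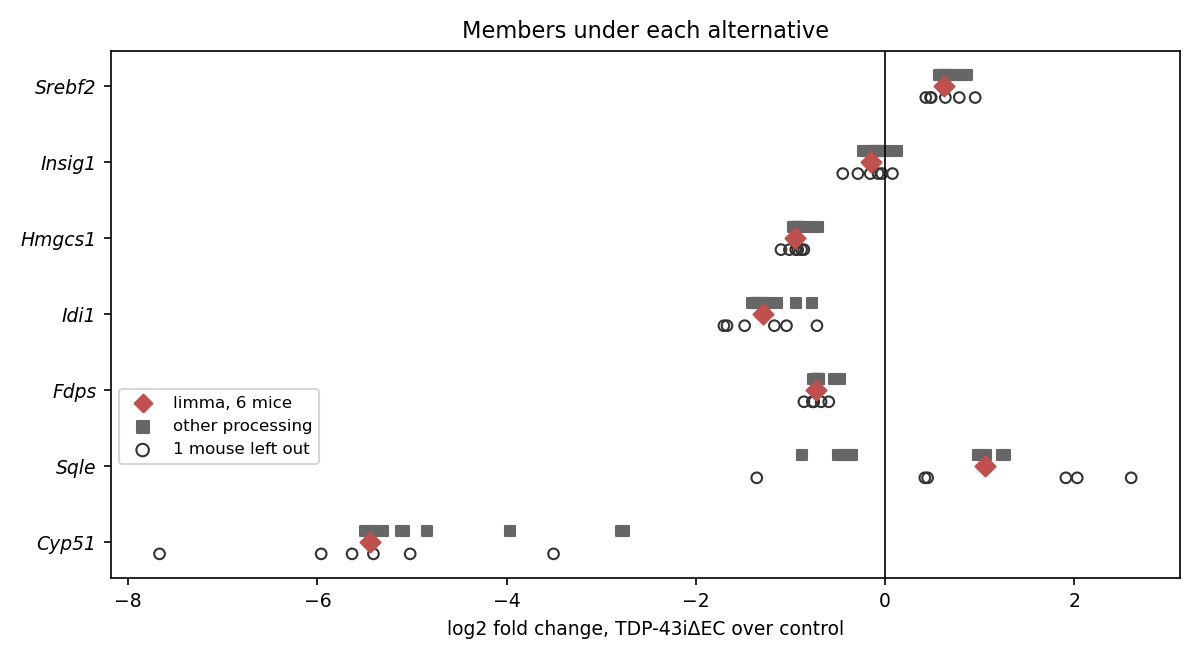
Log2 fold change (TDP-43iΔEC over control) of each member in limma with all 6 mice (diamond), under other processing (squares) and with 1 mouse left out (open circles). Hmgcs1, Idi1, Fdps and Cyp51 stay negative and Srebf2 positive in every alternative shown, whereas Insig1 and Sqle fall on both sides of 0.

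Over the alternatives, Hmgcs1 ranged from -1.10 to -0.71, Fdps from -0.86 to -0.48, Idi1 from -1.70 to -0.72 and Cyp51 from -7.67 to -2.76 on the log2 scale. The lowest adjusted p of any member under any alternative was 0.328, for Cyp51. Nothing in the sources used here says that mice of a group came from separate litters, so p values measure the spread between these mice.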

How the data were processed

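ECs of 3 control and 3 TDP-43iΔEC mice were sorted from spinal cords at P16. The authors prepared SMARTseq2 libraries from low RNA input without molecular identifiers, aligned reads with STAR 2.7.8a to GRCm39 and obtained the deposited estimated counts per gene with RSEM 1.3.0 and GENCODE M30. The deposited values were whole numbers and were used unscaled and unfiltered; 0 sample columns lacked a label.

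Main values came from limma 3.58.1 (voom, TMM, filterByExpr; R 4.3.3) with Benjamini-Hochberg adjustment over 13107 genes at 0.05. Alternatives included edgeR 4.0.16 (quasi-likelihood) and DESeq2 1.42.0 (Wald), other scalings and filters, and leaving out each mouse. Normalized counts are counts divided by DESeq2 size factors. Scripts were tested on simulated data. Floors are 3 counts and cover counting error only. Positions, exon lengths, overlaps and shared transcript sequence (at least 51 bp at 97% identity) were read from GENCODE M39, where 98.7% of the identifiers were found. Promoters came from RefSeq, GRCm38.p6.

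The members, 5 gene lists and naming rule were chosen with earlier results of these data known. In each list, genes past the threshold were named, otherwise the 3 largest absolute log2 fold changes with a mean of at least 100 counts per library. For likeness, the 5 highest correlations among genes with at least that mean were named. Some genes of the pathway and of the lists are not reported here, and the counts and marker sums leave them out.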

Additional observations from a re-analysis of the deposited data

How the results depend on the processing

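None of the 7 members and none of the 15 other sterol enzymes passed an adjusted p of 0.05 under any alternative, nor 0.1 in limma with all mice; in DESeq2 Mvk reached 0.0784. The median over all tested genes moved from -0.01 to 0.18 with total counts alone, 0.23 with the EC marker scale and -0.17 without control mouse 2, while the members' median stayed between -0.86 and -0.48. The count of genes past the threshold was 18 and became 10 with total counts alone, 40 with quantile normalization, 1 with the EC marker scale, 76 with no filter on low counts, 39 with at least 10 counts in every library, 31 at an adjusted p under 0.1, 0 in edgeR's quasi-likelihood test (848 at an unadjusted p under 0.05) and 250 in DESeq2's Wald test; with a mouse left out it ranged from 0 (without TDP-43iΔEC mouse 1) to 13. Members without overlap numbered 1 on the EC marker scale, higher in TDP-43iΔEC mice, against 3 lower; with a mouse left out they numbered 3 to 4 (3 to 4 lower and 0 to 1 higher), where 10.6% to 12.9% of tested genes were lower and 10.4% to 13.5% higher; TMM scaling, an alternative chosen after seeing the data, also gave 3. The cause of these differences was not tested. With at least 10 counts in every library, Sqle and Cyp51 were not tested.

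Signs turned for these log2 fold changes. With edgeR, Sqle gave -0.49 and Rnf145 0.24, and with DESeq2 Sqle gave -0.44 and Rnf145 0.29. Sample quality weights gave Sqle -0.87, Fasn -0.064, Pdss1 0.68 and Rnf139 0.11, and quantile normalization gave Sqle -0.35. Insig1 became 0.022 with total counts and 0.12 with the EC marker scale. With a mouse left out, values ranged from -1.36 to 2.60 for Sqle, -0.45 to 0.077 for Insig1, -0.20 to 4.33 for Hsd17b7, -2.71 to 0.68 for Rnf145, -0.76 to 0.16 for Rnf139, -1.19 to 4.00 for Fasn, -1.14 to 5.003 for Nr1h3, -1.69 to 0.22 for Mylip and -5.16 to 0.66 for Pdss1. The replicate block gave 22 genes past the threshold and no call among the members, with Sqle at -0.37 and Rnf145 at 0.62. Deviations from the group means had correlations of -0.06, -0.11 and -0.02 between same-numbered mice. With 3 mice per group these values cannot decide whether the numbers pair the mice, and the sources used here do not say.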
